A study of Hordeum vulgare with 10 samples.

Results

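The sequences described here, hvu-new2 and hvu-new5, are 2 of the 142 miRNAs listed for dry barley seeds, and both come from the same place on chromosome 5H. They were chosen by name, hvu-new2 because it was listed in stored seeds and at 0 in regenerated seeds, and hvu-new5 because it is the same sequence without the first base. The comparison of stored with regenerated seeds was therefore used in the choice. Its values are given as a description, without a test.

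Small RNA was sequenced from the embryo and scutellum (the tissue that takes up endosperm reserves at germination) of dry seeds of the cultivar Damazy, in 3 groups of 3 libraries. Low-viability (Lv) and high-viability (Hv) seeds were both put in store in 1972 and sampled in 2018, when 2% of Lv and most of Hv germinated. By the study's methods they were seeds of the same lot sealed in separate flasks, with a higher moisture content in Lv at sampling. Regenerated seeds (Rc), the non-stored control, were the field offspring of the high-viability seeds. Every library is a pool of seeds from 1 flask or 1 harvest, so that storage or viability cannot be told apart from the flask or harvest, and the spread between libraries is that between such pools. The libraries held between 3966 and 19542 counts of miRNAs. All Lv libraries and Hv replicate 3 were sequenced in run 2, and Hv replicates 1 and 2 and Rc replicates 2 and 3 in run 1. The labels list Rc replicate 1 in both runs, and its column of counts does not say which.

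A plant miRNA is cut by a Dicer-like enzyme from the stem of a hairpin precursor, as a duplex with a partner strand, the miRNA*. The strand loaded into an Argonaute protein pairs with transcripts along nearly its whole length and guides their cleavage or the block of their translation. An isomiR that differs at the 5′ end pairs with a transcript from another first base, and the 5′ base is known from Arabidopsis to bear on which Argonaute protein takes it up. In dry seeds, where metabolism is quiescent, miRNAs are largely those held over from seed maturation.

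The sequences are shown because the whole difference between the members is a single base at the 5′ end, which moves the seed (bases 2 to 8, in capitals) by 1 base. They are written with T, as in the supplementary table of the study.
hvu-new2: aAGTCCTCgtgttgcattcct
hvu-new5: aGTCCTCGtgttgcattcct

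In the IBSC_v2 build, hvu-new2 lies at chr5H:137203136-137203156 on the plus strand and hvu-new5 at chr5H:137203137-137203156. No gene annotation of this build was used here, so that the surrounding gene or repeat is not given. The members measure 21 and 20 nt, and their G+C content is 47.6% and 50.0%. Both begin with A, as do 11 of the 81 predicted miRNAs, against 50 that begin with T. The authors' prediction placed both in the same hairpin of 76 nt at chr5H:137203100-137203175, in which hvu-new2 is written in capitals.
Hairpin: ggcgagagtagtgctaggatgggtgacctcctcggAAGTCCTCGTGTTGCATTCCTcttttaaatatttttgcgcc

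In this hairpin hvu-new2 runs from base 36 to base 56. The listed start of hvu-new2 would place it at base 37, so that the listed positions of hairpin and miRNA are 1 base apart. RNAfold gave the hairpin a minimum free energy of -25.0 kcal/mol. In that fold 18 of the 21 bases of hvu-new2 were paired, and 17 of the 20 of hvu-new5. The hairpin loop had only 4 bases, from base 31 to base 34, and next to the duplex 14 bases in a row stayed unpaired. The miRNA* listed for hvu-new2 covers bases 4 to 24, and 14 bases of hvu-new2 paired with it.
miRNA*: gagagtagtgctaggatgggt

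**Figure D1:**
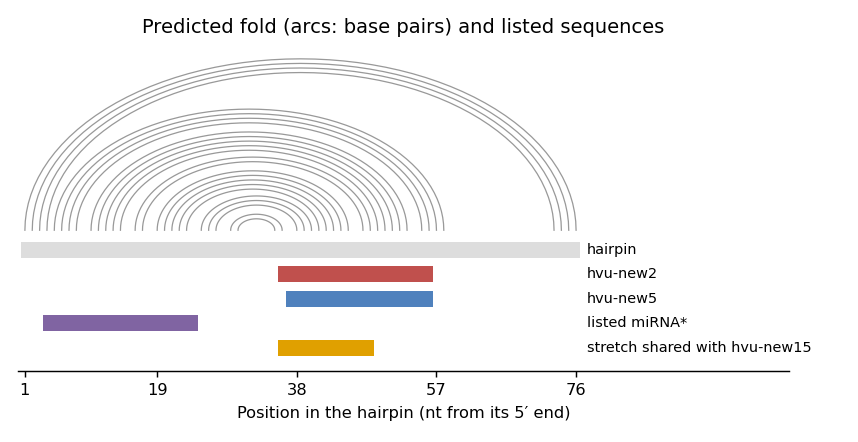
Predicted fold of the 76-nt hairpin of hvu-new2 and hvu-new5. The horizontal axis is the position from the 5′ end in nt, arcs join paired bases, and bars show the hairpin, the members, the listed miRNA* and the stretch shared with hvu-new15. The bars of hvu-new2 (bases 36 to 56) and hvu-new5 differ only in the first base, and the shared stretch covers the first 13 bases of hvu-new2.

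Another predicted miRNA, hvu-new15, has part of the same sequence on another chromosome. It is listed at chr7H:263596308-263596327 on the minus strand and shares 13 bases in a row with hvu-new2, shown in capitals. Of the other predicted miRNAs, the closest shared 6.
hvu-new2: AAGTCCTCGTGTTgcattcct
hvu-new15: cctgggAAGTCCTCGTGTTa

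The 5H and 7H hairpins also share 19 bases in a row downstream of the miRNAs (ttttaaatatttttgcgcc). As background and not as a comparison run here, the part of the 5H hairpin before this stretch reads like the end of the 5S ribosomal RNA of plants. No rRNA sequence was at hand and the resemblance was not tested. By the study's read summary, tRNA and rRNA matches took a higher share of clean reads in every stored library than in any Rc library. Any bearing of this on the counts of the members was not tested. The hvu-new15 counts were low, with 4 in Rc replicate 3, 7 in Lv replicate 2, 6 in Hv replicate 2, 4 in Hv replicate 3 and 0 elsewhere.

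The hvu-new2 sequence was listed at 0 in Rc replicates 1, 2 and 3. Lv replicates 1 to 3 had 66, 109 and 87 counts of it, and Hv replicates 0, 81 and 78. All Lv libraries thus lay above all Rc libraries, while Hv overlapped Rc through Hv replicate 1. Of the 99 miRNAs that reached 10 counts when the 9 libraries were added up, 8 (8.08%) had all Lv libraries above all Rc libraries in TMM-normalized CPM. At 0 in all Rc libraries and listed in at least 1 stored library were 5 (5.05%), of which hvu-new2 alone (1.01% of the 99) was listed in all Lv libraries. These shares are given as background only, since hvu-new2 was chosen on this difference.

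Levels were computed as RPM, in which counts are scaled to 1000000 mapped reads of the library. In Lv, hvu-new2 stood at 313 ± 81.5 RPM (SD, n = 3) and in Hv at 155 ± 143, with 283 RPM in Hv replicate 2 and 181 in Hv replicate 3. A count of 0 allows up to 3 counts (the one-sided 95% Poisson limit), or 12.5, 12.5 and 6.85 RPM in Rc replicates 1 to 3 and 15.2 RPM in Hv replicate 1. The mean of the 6 stored libraries (234 RPM, with Hv replicate 1 at 0) was 18.7 times the highest of these per-library limits in Rc. That ratio describes the difference hvu-new2 was chosen on. It is no lower bound, as the stored mean has a spread of its own. These limits for a count of 0 and the intervals below cover counting error only. They also take a listed 0 as no reads found. Predictions came from the tool miRCat, and the study does not say whether a sequence not predicted in a library was still counted there. Which of these a listed 0 means was not tested. In a whole tissue, fewer cells with a miRNA and less of it per cell cannot be told apart. Where listed, hvu-new2 was the 14th to 17th most abundant miRNA of its library, and so not a rare sequence there.

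The hvu-new5 sequence followed another order. Rc replicate 1 had 106 counts of it, Rc replicate 2 had 0 and Rc replicate 3 had 185. The Lv counts were 0, 0 and 58 and the Hv counts 97, 0 and 48, in the same order of replicates. Its level averaged 288 ± 250 RPM (SD, n = 3) over the Rc libraries, 49.5 ± 85.7 over Lv and 201 ± 257 over Hv, and each group had at least 1 library at 0, so that all groups overlapped. The highest level, 491 RPM (95% Poisson interval 398 to 599), was in Hv replicate 1, the only stored library without hvu-new2. The lowest level where listed was 112 RPM, in Hv replicate 3.

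Both sequences were listed together in 2 of the 9 libraries only, Lv replicate 3 and Hv replicate 3. Of the others, 6 listed 1 of the members and Rc replicate 2 listed none. In Lv replicate 3 hvu-new2 made up 60.0% of the 145 counts of both (95% Clopper-Pearson interval 51.5% to 68.0%), and in Hv replicate 3 61.9% of 126 (52.8% to 70.4%). In Lv replicates 1 and 2 and in Hv replicate 2 the share was 100%, with lower limits of 94.6%, 96.7% and 95.5%. In Rc replicates 1 and 3 and in Hv replicate 1 it was 0%, with upper limits of 3.42%, 1.97% and 3.73%. The limits of these shares, too, take a listed 0 as no reads found. The shares thus fell at 0%, near 60%, or at 100%, with no library elsewhere, and libraries of Hv stood at each of these. Both mixed libraries were of run 2 and were the deepest of their groups by total counts, but Rc replicate 3, the deepest of all, listed only hvu-new5. The part of depth in this pattern was not tested.

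**Figure D2:**
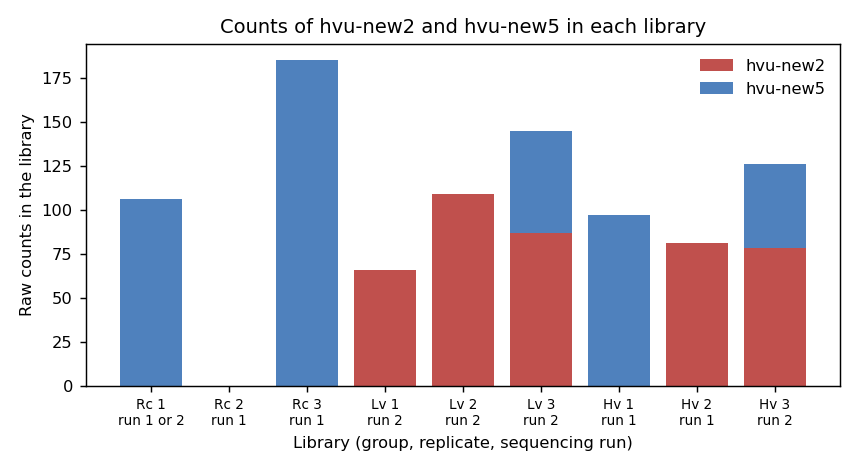
Raw counts of hvu-new2 (red) and hvu-new5 (blue) in each of the 9 libraries, stacked, with the sequencing run under each library. Rc libraries held only hvu-new5 (106 and 185 counts) or neither, 2 Lv libraries only hvu-new2, and Lv replicate 3 and Hv replicate 3 held both.

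By sequencing run, hvu-new2 was listed in 4 of 4 libraries of run 2 and in 1 of 4 of run 1, namely Hv replicate 2. The hvu-new5 sequence was listed in 2 of 4 libraries of each run. Run 2 held no Rc library of known run, and run 1 no Lv library, so that Rc and Lv cannot be compared within a run. Within run 1, Hv replicates 1 and 2 had 0 and 81 counts of hvu-new2 and Rc replicates 2 and 3 had 0 and 0. Run and group cannot be told apart for Lv against Rc.

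Summed over both sequences, the locus was listed in 8 of 9 libraries, against 5 of 9 for each member. The sum was 442, 0 and 422 RPM in Rc replicates 1 to 3, 381, 336 and 371 RPM in Lv, and 491, 283 and 293 RPM in Hv. Where listed, the sum spanned 283 to 491 RPM (a 1.74-fold range), hvu-new2 181 to 381 RPM and hvu-new5 112 to 491 RPM. The sum thus had fewer zeros than either member and, where listed, a narrower range than hvu-new5. The Rc mean was 288 ± 250 RPM (SD, n = 3), against 363 ± 23.4 for Lv and 355 ± 117 for Hv. The SD of Rc comes from replicate 2, where neither sequence was listed (up to 12.5 RPM by the same 3-count limit), although its 7159 total counts were close to the 8008 of Rc replicate 1.

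The ratio of the mean summed level, stored to Rc, was 1.25 (0.32 on the log2 scale). Its direction rested on Rc replicate 2. Without that library the ratio was 0.83 (-0.27 on the log2 scale), and without Rc replicate 1 it was 1.70. In TMM-normalized CPM of the table it was 1.70 with all libraries. The spread, 1.29 on the log2 scale (SD carried over from both groups), was larger than any of these values.

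**Figure D3:**
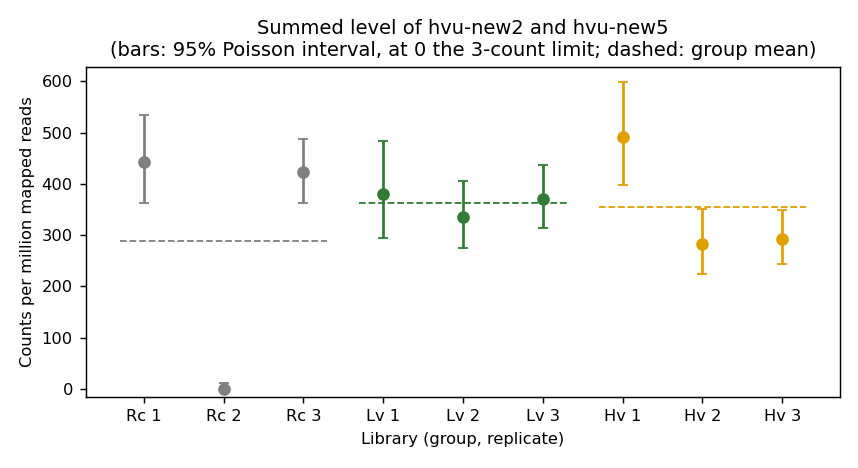
Summed level of hvu-new2 and hvu-new5 in RPM of mapped reads for each library, with 95% Poisson intervals of the counts (for the count of 0, the 3-count limit) and dashed lines at the group means. The libraries other than Rc replicate 2 lay between 283 and 491 RPM in all 3 groups, and Rc replicate 2 was at 0.

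Lv and Hv seeds, stored over the same years in separate flasks, differ in viability and moisture content. They were compared in edgeR's quasi-likelihood test, since this contrast was not used in the choice of the members. Of the 99 miRNAs, 0 passed an adjusted p of 0.05 (0%), while 5 (5.05%) had an unadjusted p under 0.05. DESeq2 also called 0, with 3 at an unadjusted p under 0.05. For hvu-new2 the log2 fold change, Lv against Hv, was 1.20 (standard error 1.16, 95% interval -1.57 to 3.97, edgeR adjusted p = 0.985). The Lv mean stood higher, and without Hv replicate 1, the Hv library at 0, the value fell to 0.64 (edgeR adjusted p = 0.768). With run as a term and Rc replicate 1 left out it was 0.87 (edgeR adjusted p = 1), and from the run 2 libraries alone, 3 of Lv and 1 of Hv, it was 0.99.

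For hvu-new5 the log2 fold change was -2.08 (standard error 2.18, 95% interval -7.03 to 2.86, edgeR adjusted p = 0.985). It became 0.02 without Hv replicate 1 and, with Lv then at 0 so that the value depends on the prior count, -9.28 without Lv replicate 3 (edgeR adjusted p = 0.633). With run as a term it was -0.99 (standard error 3.73, edgeR adjusted p = 1), and from the run 2 libraries alone -0.89. Neither member differed between Lv and Hv beyond the spread between replicates, and the intervals allow differences of several fold in both directions.

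For both sequences summed, the Lv to Hv difference was -0.0090 on the log2 scale (standard error 1.08, 95% interval -2.45 to 2.43, edgeR adjusted p = 1). The fit shares its spread over all groups, Rc replicate 2 included. Without that library the value was -0.02 with a standard error of 0.36 and a 95% interval from -0.85 to 0.82, or less than 2-fold in either direction. Leaving out any other single library did not narrow the interval in this way. With run as a term the value was 0.37 (standard error 1.72, 95% interval -3.76 to 4.50, edgeR adjusted p = 1). Within run 2 it was 0.38, given as a value only because 1 Hv library holds no spread of its own.

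**Figure D4:**
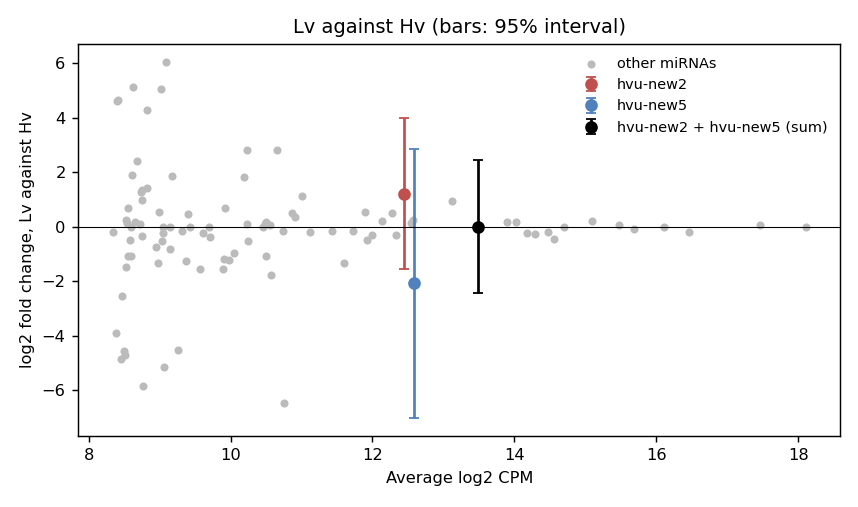
Log2 fold change of Lv against Hv (vertical axis) against average log2 CPM (horizontal axis) for the 99 miRNAs tested in edgeR, with 95% intervals for hvu-new2, hvu-new5 and their sum. The members lay on opposite sides of 0, at 1.20 and -2.08, and the sum at 0, and all 3 intervals included 0.

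Of the pooled counts of both, hvu-new2 made up 81.9% in Lv and 52.3% in Hv. By libraries, the mean share in Lv (SD 23.1 points, n = 3) was above that in Hv (54.0%, SD 50.5 points, n = 3) by 32.7 points, which did not stand out from the spread between libraries (exact permutation test, two-sided, p = 0.7, where 3 libraries against 3 allow no p below 0.1).

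Among the predicted miRNAs, 11 other pairs lay at a shared locus with ends at most 2 bases apart. In 7 of all 12 pairs only the 3′ end differed, and hvu-new2 with hvu-new5 was 1 of 2 pairs that differed only at the 5′ end. The pair with the highest summed counts, hvu-new49 and hvu-new52 (3091 counts), differs by 2 bases at the 3′ end and was listed together in 4 libraries. The next highest after hvu-new2 and hvu-new5 (915 counts), hvu-new49 and hvu-new50, was listed together in 1 library and as a single sequence in the other 8. Of the 11 other pairs, 4 were never listed together. Listing of only 1 of the sequences in a library was thus also seen at other loci. Of those pairs, 6 had only 27 to 47 counts in sum, and hvu-new49 is listed at loci on 4H, 5H and 6H. All listed counts of hvu-new52 (246, 255 and 594 in Rc replicates 1 to 3) and of hvu-new50 were multiples of 3. Whether their reads were counted more than once was not tested, so the summed counts of their pairs may not compare with the 915. Most of the 7 pairs with only a 3′ difference join hvu-new49 or sequences nested with it, so the pairs are not independent.

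Of the other miRNAs with a mean count within 2-fold of that of hvu-new2 (46.8 counts per library), all 6 known miRNAs were listed in every library, and 3 of 6 predicted ones had at least 1 library at 0. The predicted hvu-new43, without a 0, had the same counts as the known miR168.10 in Rc (48, 20 and 77), so the known and predicted miRNAs are not independent. The predicted hvu-new14, of another locus, counted 104, 0 and 208 over the Rc replicates, 102, 0 and 139 over Lv and 0, 136 and 55 over Hv. It was thus at 0 in Rc replicate 2 and Hv replicate 1, which also lacked hvu-new2, and in Lv replicate 2, which had the highest count of it. Zeros beside high counts were thus found in all 3 groups and not in hvu-new2 and hvu-new5 alone.

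Over the 9 libraries, the patterns most like that of hvu-new2 in log2(TMM CPM + 1) were those of hvu-new57 (Pearson's r = 0.77), miR166.6 (0.73) and miR171.2 (0.72). Of these, hvu-new57 and miR171.2 had at most 7 counts in a library. The patterns most like that of hvu-new5 were those of miR5048.2 (0.74), miR168.10 (0.60) and hvu-new55 (0.57), the last again with at most 7 counts in a library. Between hvu-new2 and hvu-new5 r was -0.44. These values are descriptions over libraries that share depth and scaling. From A. thaliana, the miR166 family is known to target homeobox-leucine zipper transcription factors and miR168 the Argonaute gene AGO1.

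For context, the study predicted barley targets of hvu-new2 by sequence pairing, among them transcripts of glyceraldehyde-3-phosphate dehydrogenase (a glycolytic enzyme), sucrose-phosphatase (the last step of sucrose synthesis), beta-amylase (starch breakdown), a B hordein (storage protein) and a non-specific lipid-transfer protein. The listed targets also include a germin-like protein, a pathogenesis-related protein, a hordoindoline and the large chain of ribulose bisphosphate carboxylase. None of these predictions was tested here, and no transcript was measured. The RT-qPCR that the study ran for hvu-new2 is not analysed here.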

How the data were processed

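The authors filtered the reads for adapters, quality, length and tRNA and rRNA contamination (how much remained was not examined here), mapped the reads to the barley genome (IBSC_v2), counted known miRNAs with miRProf and predicted others with miRCat. They deposited whole-number raw counts of 142 miRNAs in 9 libraries. They also deposited a normalized score for each library, rounded after scaling with DESeq2 size factors, which was not used. The deposited fold changes and p-values of the authors' DESeq2 run were not used either.

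Raw counts of all 9 libraries entered 1 fit of edgeR 4.0.16 (R 4.3.3), scaled by TMM and limited to the 99 miRNAs with at least 10 counts in total. Lv was set against Hv by the quasi-likelihood test, adjusted over the 99 by Benjamini-Hochberg. For the sum, 1 row replaced both members. RPM used the mapped reads that the study gives per library. Intervals and permutation tests were computed in scipy 1.17.1 and folds with RNAfold (ViennaRNA 2.7.2). Sequences and positions came from the study's supplementary table of hairpins. Alternatives were RLE, mapped reads as library sizes, no filter, DESeq2 1.42.0, copies of known miRNAs left out, the replicate block, run, and leaving out each library. Members and lists were chosen with earlier results of these data known. By the rule for named miRNAs, the text names the members, predicted miRNAs sharing at least 13 bases in a row with them, the 2 other shifted pairs with the most counts and the 3 most alike per member. Outside it, hvu-new14 and hvu-new43 were named after their values were seen. No replicate libraries of a group were identical.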

Additional observations from a re-analysis of the deposited data

Results flagged for a closer look

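Among the 6 stored libraries, hvu-new5 in Hv replicate 1 stood apart from the others at 491 RPM of mapped reads. Its gap to the next library, Lv replicate 3 at 148 RPM, was 0.698 of the whole range, above the critical value of 0.625 for 6 values. Levels of hvu-new2 (0.477) and of the sum (0.530) had no library as far apart. Of 3 values tested this way, chance would set apart about 1 in 20 if the levels were normally distributed. With hvu-new5 at 0 in 3 of the 6 stored libraries, that rate does not hold for it.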

How the results depend on the processing

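Under all 17 alternatives hvu-new2 stayed higher in Lv than in Hv and did not pass the threshold (edgeR or DESeq2 adjusted p from 0.768 to 1), a lone Hv library in run 2 being assumed to vary like Lv. Leaving out 1 library moved its log2 fold change between 0.64 and 1.79, that of hvu-new5 between -9.28 and 0.021, and that of the sum between -0.28 and 0.48. The sum, at -0.0090, turned to 0.056 with RLE size factors, 0.030 with mapped reads as library sizes, 0.081 without the count filter, 0.051 in DESeq2, 0.37 with run as a term (8 libraries, Rc replicate 1 dropped) and 0.38 within run 2 (1 Hv library, so a value only). Apart from the last, the adjusted p of these was 1. With the replicate block it was 0.16 (edgeR adjusted p = 1), hvu-new2 1.76 and hvu-new5 -2.14, and 0 miRNAs passed. Libraries of the same number share only a number, with correlations of their deviations between Lv and Hv of -0.14, 0.04 and -0.04. The count of miRNAs called between Lv and Hv went from 0 to 1 without Lv replicate 3 (hvu-new28) or Hv replicate 3 (hvu-new69), neither of them a member. The difference in the share of hvu-new2 lay between 5.71 and 55.7 points without 1 library, and was 29.6 with pooled counts. The log2 ratio of the summed level, stored to Rc, lay between -0.27 (without Rc replicate 2) and 0.77 without 1 library. Within run 1 it was 0.87, from Hv replicates 1 and 2 against Rc replicates 2 and 3. No Lv library entered that value, and Rc replicate 2 was at 0. The standard error of hvu-new2 between Lv and Hv, 1.16, was 0.38 without Hv replicate 1, where it was at 0.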
